A study of Mus musculus with 2 samples.

Results

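Chemokine receptor genes were examined in double-positive (DP) thymocytes from mice with a conditional deletion of Bcl11b. The members were Cxcr5, Cxcr3, Cxcr4, Cxcr6, Ccr4, Ccr7, Ccr8 and Ccr9, taken as a listed gene family, 8 of the 27595 gene names on the array. Of 41174 probes 10 measured them, all matched by accession, with Cxcr5 under its older name Blr1 in the array files. RNA was compared on 2 mouse 2-colour oligonucleotide arrays, each a biological replicate with 1 sample of either genotype. The deficient cells came from Bcl11bF/FCD4Cre/Tcra-/- mice and were labelled with Cy5. In these mice the Cd4 promoter drives Cre, which removes floxed Bcl11b from the stage at which Cd4 is first made. The controls came from TCRa-/- mice and were labelled with Cy3, so all samples lack Tcra, and without it thymocytes make no alpha beta T cell receptor and are not selected. The labels name neither Cre nor a floxed Bcl11b gene for the controls, and give no age, sorting method or number of mice per sample. No array had the reverse dye orientation, so dye, Cre and loss of Bcl11b cannot be told apart. In such bulk RNA, fewer cells of a type and less RNA per cell cannot be told apart either.

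Chemokine receptors are G protein-coupled receptors of the cell surface that steer cells along gradients of small secreted chemokines, through Gi proteins, phosphoinositide 3-kinase gamma and the Rac activator DOCK2. In the thymus, CXCR4 (ligand CXCL12) and CCR9 (ligand CCL25) hold and guide immature cells in the cortex, and CCR7 and CCR4 guide positively selected cells to the medulla. CXCR5 (ligand CXCL13) is best known from B cells and follicular helper T cells, and CXCR3 and CXCR6 from effector, NK and NKT cells. BCL11B, a zinc finger protein that binds DNA, is needed for T cell commitment and in DP thymocytes.

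Signals below are the authors' processed signals, in scanner intensity units after background subtraction and dye normalization, and ratios are log2 of deficient over control after normexp and loess normalization unless stated. Both arrays lay on the same slide and were read in the same scan. Of 43379 spots that were not controls, between 50.5% and 56.5% were well above background in any of the 4 samples. Bcl11b itself, by 2 probes, had processed signals from 3573 to 6924 in deficient samples and from 8190 to 15984 in control samples, and ratios from -2.16 to -0.28. Median centring turned the ratio of the probe with -0.28 on replicate 2 to 0.25. Whether either probe lies in the deleted part of the gene is not given in the sources used here. All 15 listed DP thymocyte markers, among them Cd4, Cd8a, Rag1 and Ptcra, were kept. A probe was kept where 1 genotype at least had it well above background in each replicate. Only 2 arrays limit the precision of every value. The labels call the arrays biological replicates but do not say from which animals. The p-values measure the spread between these arrays, weighed by limma with a spread shared over all genes.

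The family did not move as 1 block. Cxcr5 stood far higher in the deficient samples, by 3.68 and 5.40 on the log2 scale, and had the highest mean ratio of all 14923 genes tested. Cxcr3 was moderately higher (0.70 and 0.67), and Ccr9 was lower (-0.74 and -1.99), with only 23 genes at a lower mean. Cxcr6, Ccr7 and Cxcr4 had mean ratios between -0.24 and 0.07. Ccr4 and Ccr8 were not well above background in any sample. No member, and none of the 14923 genes, passed limma's test with Benjamini-Hochberg adjustment over all genes (0% called). At an unadjusted p under 0.05, limma marked 29.2% of all genes, and 3 of the 6 kept members, namely Cxcr5, Cxcr3 and Ccr9.

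**Figure D1:**
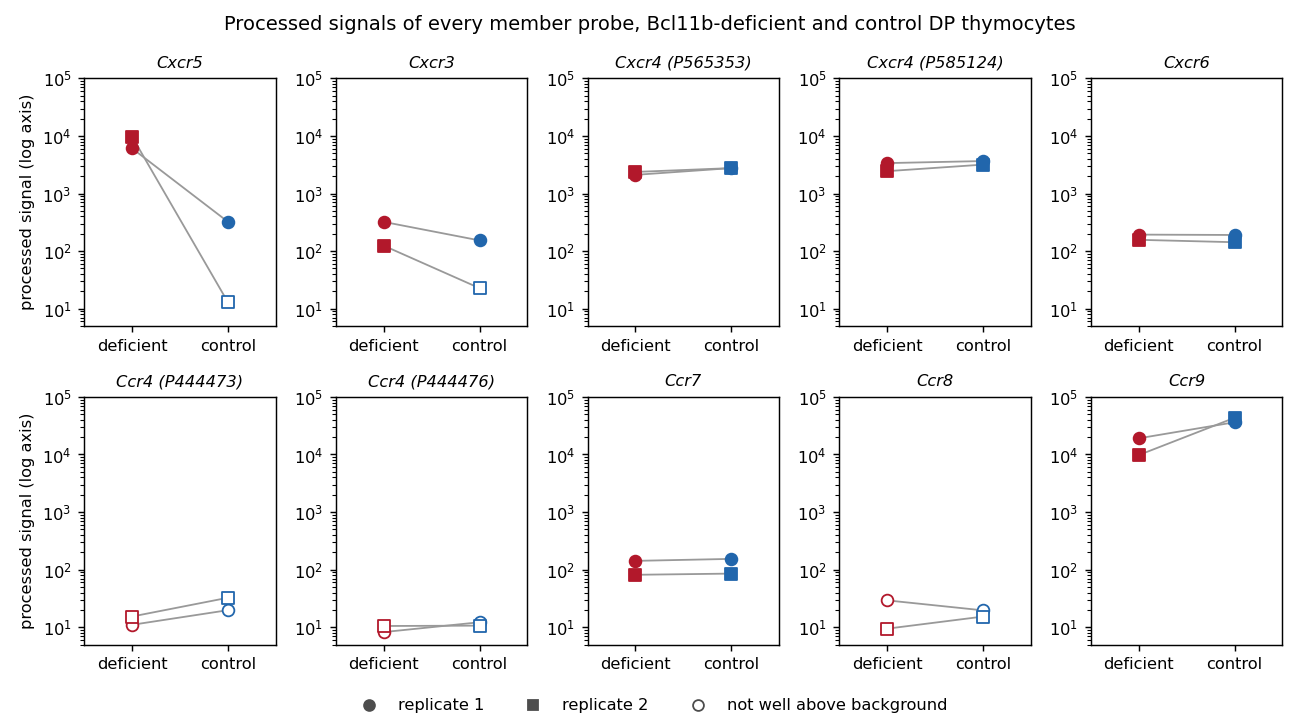
Processed signal (log axis, scanner units) of each of the 10 member probes in deficient samples (red, left) and control samples (blue, right), with a line joining the samples of 1 array and open symbols for spots not well above background. For Cxcr5 the deficient samples (6092 and 9729) sit far above the control samples (323 and 13.0), for Ccr9 they sit below, and the Ccr4 and Ccr8 spots are all open.

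Of the 6 kept members, 3 were higher on both arrays (Cxcr5, Cxcr3, Cxcr6), where 36.4% of all genes were, and 3 were lower on both (Cxcr4, Ccr7, Ccr9), where 38.5% of all genes were. All 6 thus had the same sign on both arrays, as did 74.9% of all genes, and the median of their mean ratios was 0.03, against -0.003 for all genes. Cxcr5 was the only member at least 2-fold higher on both arrays (0.818% of all genes), and no member was at least 2-fold lower on both (0.275% of all genes). The shares of 36.4% higher and 38.5% lower over all genes also stand beside each list counted below. Cxcr5 and Cxcr3 entered through the deficient channel alone, since their control signal was well above background on 1 of the arrays only. The other kept members were well above background in all 4 samples.

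Cxcr5, the receptor of follicular homing, was measured by 1 probe at chr9:44262983-44263042 (mm8, minus strand). Its processed signal was 6092 and 9729 in the deficient samples of replicates 1 and 2, against 323 and 13.0 in the control samples. The control spot of replicate 2 was not well above background, its processed signal being a substitute that Feature Extraction sets for dim spots. The mean ratio was 4.54 ± 0.46 (SE, limma, 2 arrays), or 23.3-fold, with a 95% interval of 9.05-fold to 59.9-fold and an adjusted p of 0.0750 by limma. Since the control was measured above background on 1 array only, this mean and interval describe the normalised values and set no ceiling on the fold. On replicate 1, where both channels were measured, the fold was 12.9, and on replicate 2 the normalised ratio over the dim control spot was 42.2-fold. The ratios of the arrays lay 1.71 apart, and 0.214% of all genes had so wide a gap. The call was made by median centring (4.73, limma adjusted p = 0.0326) and by separate-channel limma (4.54, adjusted p = 0.0214), which called 6.58% and 8.59% of all genes, and higher in deficient cells 5.88% and 4.76%. Lower calls made up 0.704% and 3.83%, with no member among them. The processed signals called 1.43% of all genes (0.744% higher, 0.684% lower) and the deposited values of the series 0.831% (0.469% higher, 0.362% lower), also with no member. The processed signals gave Cxcr5 ratios of 4.24 on replicate 1 and 9.55 on replicate 2, where the substitute stands in the control channel.

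CXCR5 is abundant on B cells, so B cell markers were read beside it. Of 12 listed markers, 7 were kept, none was higher in the deficient sample on both arrays and 4 were lower on both. Their summed processed signal was 5137 and 3637 in deficient samples, against 7882 and 4304 in control samples. Cd79a, Ebf1 and Cr2 were not well above background in any sample. Among those undetected markers, Ebf1 had signals of 30.0 and 29.6 in deficient samples, against 16.1 and 9.91 in control samples. The part of B cells in the Cxcr5 ratio was not tested.

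**Figure D2:**
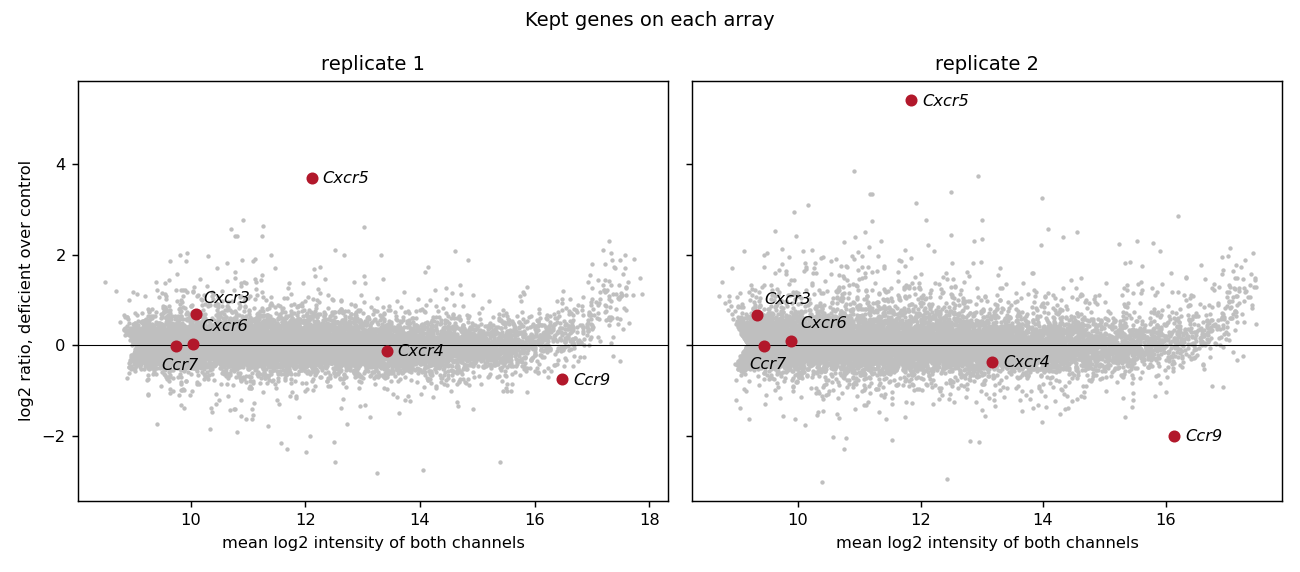
Log2 ratio of deficient over control against the mean log2 intensity of both channels for each kept gene on replicates 1 and 2, with the 6 kept members in red. Cxcr5 lies above every other gene on both arrays, while Ccr9 lies below zero among the brightest genes, whose other ratios bend upwards.

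Cxcr3, a receptor for the interferon-induced chemokines CXCL9 and CXCL10, was measured by 1 probe at chrX:97934300-97934359 (mm8, minus strand). Its processed signal was 322 and 124 in the deficient samples, against 153 and 22.7 in the control samples. Within each array the deficient sample was the higher, although the deficient sample of replicate 2 was dimmer than the control sample of replicate 1. The mean ratio was 0.68 ± 0.07 (SE, limma adjusted p = 0.0750), or 1.60-fold with a 95% interval of 1.39-fold to 1.85-fold. These dim spots read differently by method: the processed signals gave 1.07 and 2.45, the signals without background subtraction 0.51 and 0.40. Their mean log2 ratios, 1.76 and 0.46, both lay outside the interval above. That interval describes the normalised values only, since the control was well above background on 1 array. On replicate 2 the control spot was not well above background. Set to the lowest control signal that was, it gave 1.42-fold in the normalised values. That is no firm floor, since the ratio there was smaller without background subtraction. Median centring called Cxcr3 (0.68, limma adjusted p = 0.0443), and no other alternative did. Across the alternatives its limma adjusted p ran from 0.0443 to 0.153, the last by separate-channel limma.

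NK cells carry CXCR3 too. Of 12 NK or innate lymphoid markers on the array 10 were kept, of which 8 were higher in the deficient sample on both arrays and 1 was lower on both. Their summed processed signal was 15217 and 14148 in deficient samples, against 8189 and 7000 in control samples. The highest mean ratios were those of Klrb1c (2.87), Klrd1 (1.28), Il2rb (0.95) and Gzma (0.81), which encode NK receptors, an interleukin receptor chain and a granzyme. The marker lower on both arrays was Prf1, the perforin gene, with ratios of -0.09 and -0.34. Eomes had ratios of 0.23 and -0.04, and Klra1 was not well above background in any sample. The part of such cells in the Cxcr3 ratio was not tested.

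The bases upstream of the start site of Cxcr3, and below those of Ccr9, are shown as those of the members furthest from even, on either side, for which the table holds a promoter. They come from RefSeq (GRCm38.p6) and were searched on both strands for the E-box CANNTG, bound by E proteins, and the Runx motif TGTGGT. Promoters of Cxcr5 and Ccr7 were not analysed here. Of 32851 such windows of 250 bases, 21753 (66.2%) held the E-box and 4614 the Runx motif. The Cxcr3 window, chrX:101734148-101734397 (GRCm38.p6, minus strand), held 1 of each side by side without overlap, in capitals here.
Cxcr3: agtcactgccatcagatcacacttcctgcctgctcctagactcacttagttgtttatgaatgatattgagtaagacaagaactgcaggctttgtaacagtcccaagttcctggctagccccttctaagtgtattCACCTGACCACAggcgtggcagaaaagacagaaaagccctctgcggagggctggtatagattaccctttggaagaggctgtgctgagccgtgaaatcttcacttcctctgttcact
A match describes letters only, and no binding was measured.

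Ccr9, the CCL25 receptor of cortical thymocytes, was measured by 1 probe at chr9:123629914-123629973 (mm8, plus strand). Its processed signal was 19098 and 9772 in the deficient samples, against 36321 and 43389 in the control samples. All 4 spots were well above background and not saturated. The deficient cells were at 59.8% of the control level on replicate 1 and at 25.1% on replicate 2. The mean ratio was -1.37 ± 0.34 (SE, limma adjusted p = 0.121), a fold of 0.388 with a 95% interval of 0.193 to 0.778. The replicate 2 minus replicate 1 difference was -1.25, a size that 0.549% of all genes reached.

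The size for Ccr9 moved with the dye normalization, and its spots are among the brightest, where the ratios of other genes run upwards. Before any normalization its mean signals were 103253 and 60926 in the deficient channel, against 81593 and 87115 in the control channel, so that replicate 1 read 0.34 and replicate 2 -0.52, where the median kept probe read 0.58 and 0.77. Under all 11 settings run on both arrays, Ccr9 was lower on each array, from -1.01 to -0.23 on replicate 1 and from -2.15 to -1.27 on replicate 2. Centring on genes of like intensity, chosen after the data were seen, gave -1.01 and -2.11. The authors' deposited p for the spot ratio, which covers the error within 1 array and not the spread between mice, was 2.7e-05 on replicate 1 and 4.08e-14 on replicate 2. The 15 DP markers had a median ratio of -0.24, which median centring turned to 0.16, with 11 lower on both arrays and 4 higher, and summed signals of 387854 and 340541 in deficient samples, against 426444 and 360282 in control samples. The part of cell make-up in the Ccr9 ratio was not tested.

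The Ccr9 window, chr9:123766961-123767210 (GRCm38.p6, plus strand), held 2 E-boxes and no match to TGTGGT, with the E-boxes in capitals.
Ccr9: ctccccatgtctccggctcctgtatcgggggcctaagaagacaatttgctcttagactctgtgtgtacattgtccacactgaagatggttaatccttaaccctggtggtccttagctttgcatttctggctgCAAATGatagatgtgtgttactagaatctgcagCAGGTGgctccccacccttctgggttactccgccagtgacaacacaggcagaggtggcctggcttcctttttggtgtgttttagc
E-boxes occurred in most windows, as given above, so their presence here does not set Ccr9 apart. The Cxcr6 window held 1 E-box and 1 Runx motif, as Cxcr3 did, and that of Ccr4 held 2 E-boxes and no Runx motif, as Ccr9 did. Those of Cxcr4 and Ccr8 held neither.

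Cxcr4, the receptor for CXCL12, had 2 probes on chromosome 1, and both read slightly lower in the deficient sample of each array. The brighter probe, at chr1:130416048-130416107 (mm8), had processed signals of 3380 and 2448 in deficient samples, against 3670 and 3181 in control samples, and ratios of -0.12 and -0.36. The other, at chr1:130416628-130416687, had 2114 and 2374 in deficient samples, against 2768 and 2768 in control samples, and ratios of -0.38 and -0.17. The groups overlapped at the brighter probe. The mean ratio of the brighter probe was -0.24 ± 0.09 (SE, limma adjusted p = 0.203), with a 95% interval from -0.51 to 0.04. Median centring turned the mean of this probe to 0.04.

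Ccr7, the receptor that draws selected thymocytes to the medulla, and Cxcr6, the CXCL16 receptor, were close to even. The Ccr7 probe, listed at chr11:98960289-98960314 (mm8), had signals of 142 and 81.3 in deficient samples, against 154 and 85.3 in control samples. The Ccr7 ratio was -0.01 ± 0.07 (SE, limma adjusted p = 0.905), and its 95% interval ran from -0.22 to 0.19, or 0.859-fold to 1.14-fold. The Cxcr6 probe, at chr9:123660185-123660244, had 194 and 157 in deficient samples, against 191 and 143 in control samples. Its mean ratio was 0.07 ± 0.07 (SE, limma adjusted p = 0.544), with a 95% interval from -0.14 to 0.28. For both genes the groups overlapped, and the Cxcr6 interval corresponds to folds from 0.907 to 1.22.

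Ccr4, the CCL17 and CCL22 receptor of early medullary migrants, had 2 overlapping probes, at chr9:114340371-114340430 and chr9:114340341-114340400 (mm8). Their processed signals were 11.0 and 15.3, and 8.22 and 10.5, in deficient samples, against 19.7 and 32.5, and 12.2 and 10.6, in control samples. Ccr8, the CCL1 receptor, at chr9:119943021-119943080, had 29.2 and 9.42 in deficient samples, against 19.6 and 15.3 in control samples. None of these spots was well above background, so no fold is given, and a change in either gene was not detectable on these arrays.

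**Figure D3:**
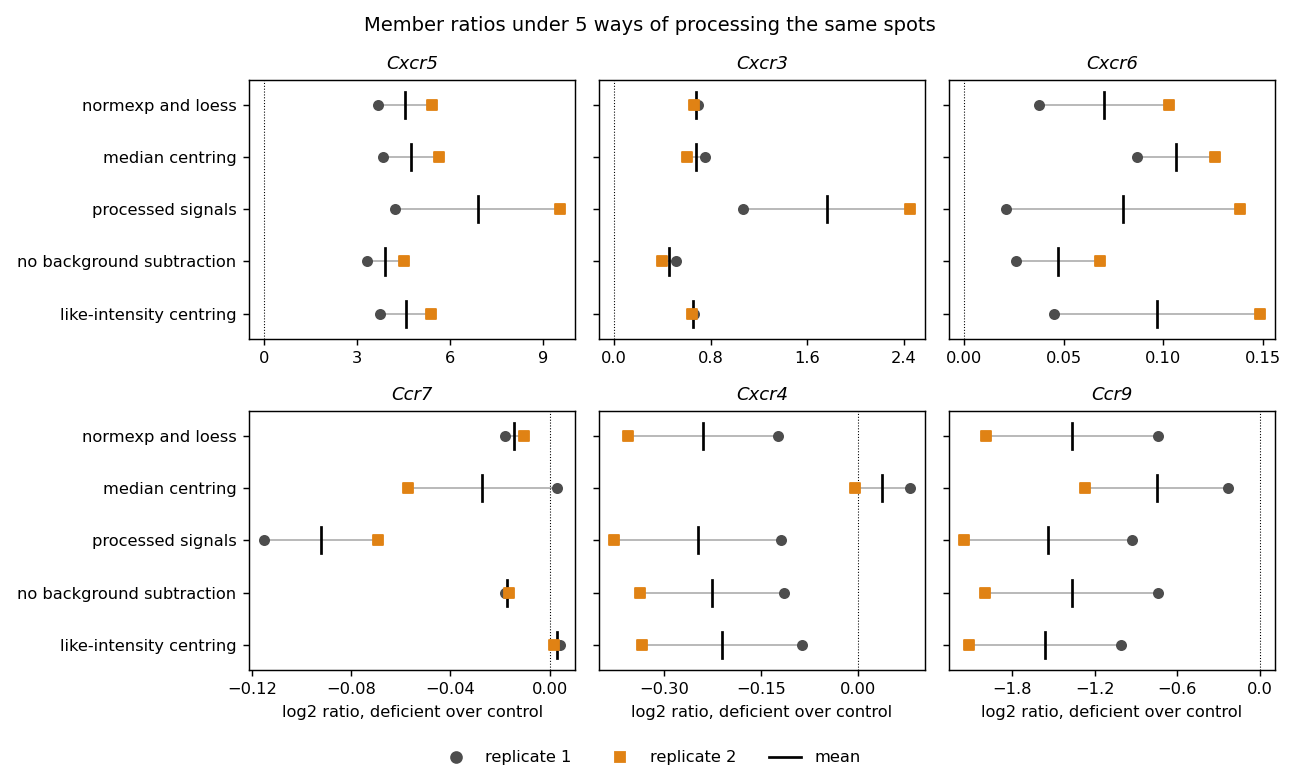
Log2 ratio of deficient over control for the 6 kept members on replicate 1 (circles) and replicate 2 (squares), with the mean as a bar, under 5 ways of processing the same spots (each panel has its own axis range). Cxcr5 and Cxcr3 stay above zero and Ccr9 below zero in every row, while the mean of Cxcr4 crosses zero with median centring and that of Ccr7 with like-intensity centring.

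Members on the same chromosome did not share a direction. Of the 8 genes, 5 lie on chromosome 9, with the Ccr9 and Cxcr6 probes 30.2 kb apart, yet Ccr9 read -1.37 and Cxcr6 0.07. Fyco1, which encodes an autophagy adaptor and lies between them, read -0.27 ± 0.14 (SE, limma, 2 arrays), and Lztfl1, on the other side of Ccr9, -0.51 ± 0.11. Beside Cxcr5, the kept probe of Bcl9l, a Wnt pathway coactivator, lay 2.10 kb away and read 0.45 ± 0.07, and that of Ccdc84, also within 100 kb, read 0.14 ± 0.07. The ratio of Cxcr5 was not seen at these neighbours, and kept neighbours within 100 kb of the other members read between -0.28 and 0.44.

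By distance over the ratio and the mean intensity on both arrays, the genes most like Cxcr5 were 8430408O14 (distance 2.37), the DNA-sensing adaptor gene Sting1 (2.44) and the NK receptor gene Klrb1c (2.86), with mean ratios of 3.30, 3.17 and 2.87. Those most like Ccr9 were the ARF-like GTPase gene Arl5c (1.00), Agfg2 (1.15) and Wdr78 (1.29), with mean ratios of -0.86, -1.07 and -1.10. These distances are in log2 units over 2 arrays and describe likeness of signal only.

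Among 18 other chemokine receptor genes, all on the array, 7 were kept and 9 were not well above background in any sample. Of those kept, 2 read higher and 4 lower in each replicate, with a median of -0.19, against -0.003 for all genes. Cmklr1, the chemerin receptor gene, had signals of 104 and 109 in deficient samples, against 31.9 and 24.1 in control samples, where it was not well above background, and was at least 1.32-fold higher (limma adjusted p = 0.081). Ccr2, the CCL2 receptor gene of monocytes, read 0.46 ± 0.08 (SE, limma adjusted p = 0.089), over a control spot well above background on 1 array, and 1.30 by the processed signals. Ccrl2 was at least 1.20-fold lower in deficient samples, where it was not well above background, and Cx3cr1, the fractalkine receptor gene, read -0.24 ± 0.07. Of 12 macrophage or monocyte markers, which include cells that carry CCR2, 8 were higher in both replicates and 3 lower in both. Their summed signal was 35260 and 33797 in deficient samples, against 31244 and 12693 in control samples. Without Lyz2, the brightest of them, the sum was 10205 and 5764 in deficient samples, against 8037 and 3936 in control samples. The part of such cells in the ratios of Ccr2 and Cmklr1 was not tested.

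Of 13 ligand genes of the members on the array, 6 were kept, 1 higher and 1 lower on both arrays. Mif, a ligand of CXCR4 with many other roles, read 0.17 ± 0.07 (SE, limma adjusted p = 0.227), and Ccl17, a ligand of CCR4, read -0.10 ± 0.07. Ccl17 was dim, with the deficient spot well above background on 1 array only, and read -0.47 by the processed signals. The median of the ligands was -0.36 on replicate 1 and 0.21 on replicate 2, so the arrays differed in sign.

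All 32 listed genes of signalling downstream of the receptors were kept, 13 higher and 12 lower on both arrays, with a median of 0.04 and means from -0.63 to 0.37. Median centring gave that list a median of 0.32, against 0.13 for all genes. Ptk2b, the PYK2 kinase gene, had signals of 1006 and 945 in deficient samples, against 1800 and 1418 in control samples, and a mean of -0.63 ± 0.09 (SE, limma adjusted p = 0.085), though its other probe read -0.15. Rassf5, the RAPL gene of integrin activation by chemokines, read -0.39 ± 0.08, and the G protein gamma subunit genes Gng5 and Gng2 read 0.37 ± 0.07 and 0.37 ± 0.07. The other probes of Gng5 read -0.30 and 0.11, and that of Gng2 read 0.07.

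Of 14 kept genes that desensitize or sort the receptors, 3 were higher and 9 lower on both arrays, with a median of -0.09, which median centring turned to 0.15. Rgs14, a GTPase activator of Gi proteins, had signals of 4582 and 4495 in deficient samples, against 8423 and 8988 in control samples. Its mean ratio was -0.94 ± 0.07 (SE, limma adjusted p = 0.072). The arrestin genes went the other way, with Arrb1 at 0.92 ± 0.20 and Arrb2 at 0.40 ± 0.08. For Arrb1 the signals were 4132 and 5054 in deficient samples, against 2630 and 2005 in control samples, and its other probe read 0.31. Ubqln1 read -0.29 ± 0.07, and median centring turned it to 0.09.

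Other receptors that position lymphocytes were also mixed, with 4 of 9 kept genes higher and 4 lower on both arrays. Gpr183, the oxysterol receptor gene that acts with CXCR5 in placing B and follicular helper T cells, had signals of 304 and 424 in deficient samples, against 78.9 and 10.1 in control samples. Its ratios were 1.08 and 2.12 (mean 1.60 ± 0.29, limma adjusted p = 0.092), over a control spot well above background on 1 array. The adenosine receptor gene Adora2a read 0.75 ± 0.17, but its other probe read 0.07. Plxnd1, a semaphorin receptor of thymocyte migration and no G protein-coupled receptor, read -0.69 ± 0.12, and P2ry10, a lysophospholipid receptor gene, read -0.60 ± 0.12.

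Of 14 kept genes for reported regulators of the members, 9 were higher and 4 lower on both arrays. Their median was 0.48, or 0.35 after centring on genes of like intensity. Id2, which encodes an inhibitor of E proteins, had signals of 2424 and 3658 in deficient samples, against 800 and 595 in control samples. Its ratios were 1.46 and 2.42 (mean 1.94 ± 0.27, limma adjusted p = 0.083), and its other probe read 1.60. Zbtb7b, the ThPOK gene, had signals of 255 and 445 in deficient samples, against 25.7 and 10.1 in control samples. Its control spots were not well above background, and it was at least 2.69-fold higher (limma adjusted p = 0.075). Runx3 read 1.09 ± 0.15 over a control spot well above background on 1 array, with 0.15 from its other probe. Zbtb7b and Runx3 were thus kept through the deficient channel alone. Notch1 read 0.83 ± 0.08, with 0.83 from its other probe. Ascl2, an activator of Cxcr5 in follicular helper T cells, was not well above background in any sample.

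**Figure D4:**
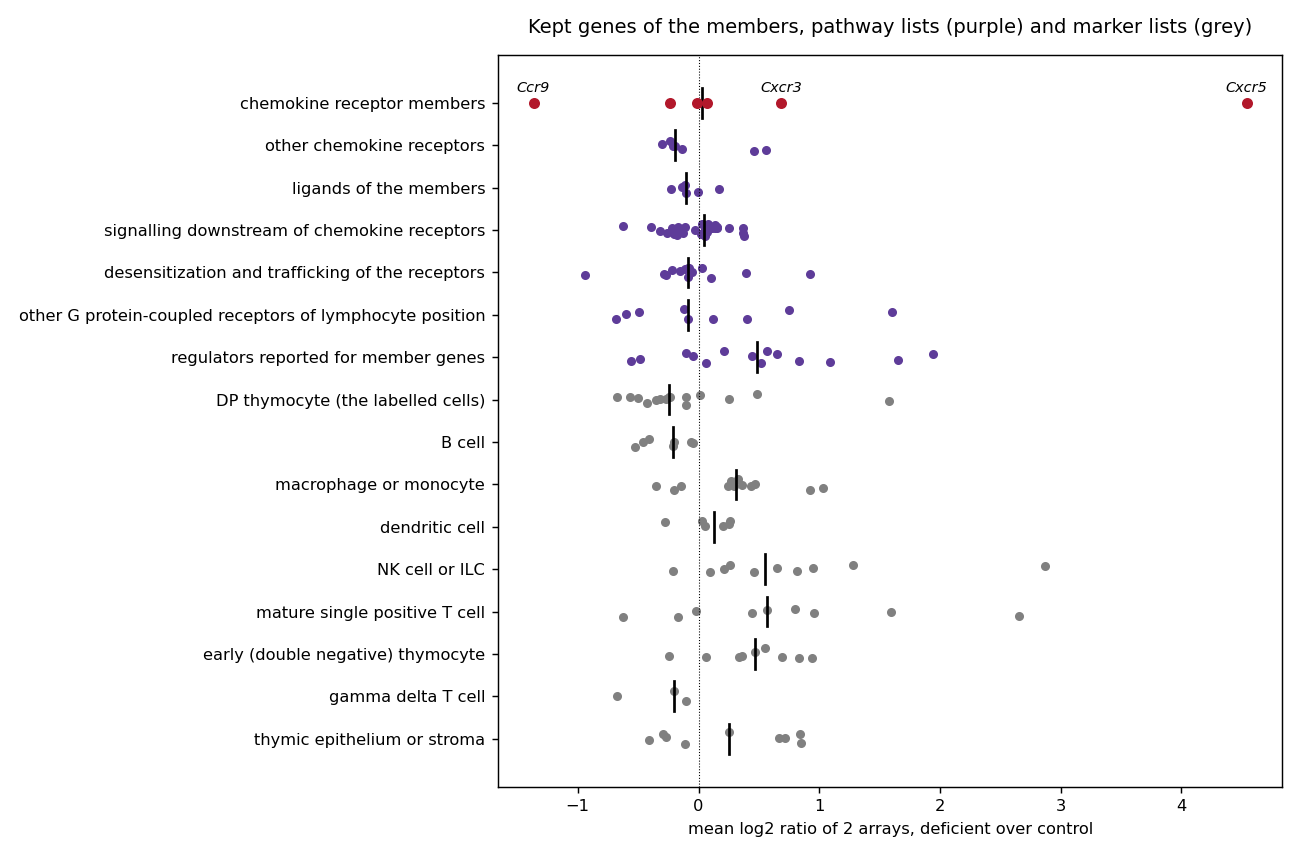
Mean log2 ratio over 2 arrays, deficient over control, of the kept genes in the chemokine receptor family (red), the pathway lists (purple) and the marker lists (grey), with a bar at each median. Cxcr5 stands apart from every other point at 4.54 and Ccr9 is the lowest point at -1.37. The medians of the signalling and desensitization lists lie near zero, with means from -0.63 to 0.37 and from -0.94 to 0.92.

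Chemokine receptors also mark thymocyte stages, and stage markers were read beside them. Of 9 kept markers of mature single positive cells, which carry Ccr7, 6 were higher on both arrays and 2 lower, with Itgb7 at 2.66 ± 0.32 and Il7r at 1.60 ± 0.09 (SE, limma, 2 arrays), while Ccr7 read -0.01. Their summed signal was 95907 and 75225 in deficient samples, against 58991 and 51520 in control samples. Of 9 kept markers of early double negative cells, 7 were higher on both arrays and 1 lower, with Cd44 at 0.94 ± 0.17. Their summed signal was 21713 and 20101 in deficient samples, against 20029 and 15210 in control samples. Tcf12 made up most of this sum, with 13437 and 13317 in deficient samples, against 15113 and 11880 in control samples. Its ratios were -0.10 and 0.22. Spi1 of that list was not well above background in any sample. The part of cells of these stages in the ratios of the members was not tested.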

How the data were processed

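Scanned images were quantified by the authors in Agilent Feature Extraction 9.5.3.1, per the submitters' processing notes. Per the file headers, mean and local background signals were deposited as uncorrected intensity. The processed signals are intensity after the authors' removal of background and dye normalization, again per the file headers. The deposited log ratio and its error are log10 values of Cy5 over Cy3, and the deposited p-value comes from the Feature Extraction error model, per the file headers. The deposited value table names no unit and equals that log10 ratio to within 0.005.

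Signals were corrected by normexp (offset 50) and normalised by loess within arrays, without controls, using limma 3.58.1 and statmod 1.5.0 (R 4.3.3). Outlier spots were left out, 108 and 116. Of 41174 probes, 21539 were kept, and the brightest stood for each of 14923 genes. A fold given with "at least" set the dim channel no lower than the lowest signal called well above background on that array. Such folds hold for the normalised values only. Array probes were named by accession (24490), symbol (6234) or synonym (2391), or kept the file's name (8059). The mean of both arrays was tested against 0 (1 residual and 2.50 prior degrees of freedom), with p-values adjusted over all genes at a threshold of 0.05. For Ccr7, Cxcr3 and Cxcr6, whose arrays lay close, the SE and interval came mostly from the spread shared over all genes. The fit was tested on simulated data. Alternatives changed the normalization, background, filter, choice of probe and model. The members and lists were chosen with earlier results of these data known. The text names every member, the 4 kept genes of each pathway list with the largest ratios of 1 sign on both arrays, the 3 genes nearest to each member with a mean of at least 1 in size. Single markers and neighbours within 100 kb are named as examples chosen after their values were seen.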

Additional observations from a re-analysis of the deposited data

How the results depend on the processing

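The directions of Cxcr5, Cxcr3, Cxcr6 and Ccr9 held under every alternative that kept them, and Cxcr5 and Cxcr3 dropped out when spots dim in either channel were removed, which left 1 member higher on both arrays. Over alternatives that use both arrays, mean ratios ranged from 3.91 to 6.89 for Cxcr5, 0.46 to 1.76 for Cxcr3, 0.05 to 0.11 for Cxcr6 and -1.56 to -0.75 for Ccr9. Median centring called Cxcr5 (4.73) and Cxcr3 (0.68), turned Cxcr4 to 0.038 and left 1 member lower on both arrays. Separate-channel limma fitted the channels of a spot as correlated values (intraspot correlation 0.38), with no further block by replicate. It called Cxcr5 (4.54) with adjusted p = 0.0214. Over all Cxcr5 alternatives the adjusted p ran from 0.0214 to 0.12, and over all Cxcr3 alternatives from 0.0443 to 0.153. Centring on genes of like intensity, chosen after the data were seen, turned Ccr7 to 0.0030. Over all genes, limma called 982 with median centring, 213 with processed signals, 124 with the deposited value table and 1282 with separate channels, and 0 otherwise, where 4357 had an unadjusted p under 0.05 with loess. Without replicate 1 or replicate 2 the single array left gave 5.40 or 3.68 for Cxcr5, 0.67 or 0.70 for Cxcr3 and -1.99 or -0.74 for Ccr9, with no test. As folds, Cxcr5 and Ccr9 moved by over 1.5 times with either array left out. Signals near background limit Ccr4, Ccr8, Ccr7, Cxcr6, Cxcr3 and, in the control sample of replicate 2, Cxcr5. No array had the dyes reversed. Every alternative uses the same 2 arrays.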
